A study of Homo sapiens with 18 samples.

Results

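The genes described here are the enzymes of glycolysis, the transporters that bring glucose in and carry lactate out, the enzymes that set the fate of pyruvate, the oxygen-sensing factors and a group of other transcripts that rise in low oxygen. They were chosen by symbol as a fixed list of 44 genes, and all 44 were found among the 56269 rows of the deposited table. The list held 15 glycolytic enzymes, 2 enzymes of fructose-2,6-bisphosphate, 3 glucose and lactate transporters, 4 enzymes of the lactate and pyruvate branch, 8 oxygen-sensing genes and 12 other targets of hypoxia-inducible factors (HIFs).

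RNA came from IMR90 cells, a line of human lung fibroblasts, and all 6 groups shared this line, its medium (EMEM with serum) and culture under reduced oxygen. The pre-incubation lasted 6 h and was done in PBS, in 20 μg/ml of cNSF-HA, the uncut hyaluronan (HA) of naked mole-rat skin fibroblasts, or in 20 μg/ml of fNSF-HA, the same HA partially cut by hyaluronidase. The 3 groups named PBS, cNSF-HA and fNSF-HA were collected at the end of the pre-incubation. The other 3 groups (PBS + tBHP, cNSF-HA + tBHP and fNSF-HA + tBHP) then received the organic oxidant tert-butyl hydroperoxide (tBHP, 200 μM) for 1 h, and RNA was taken 6 h from its start. Each group had 3 libraries (n = 3 throughout). Cells with tBHP were therefore collected later than cells without it, and the effect of tBHP and that of the added time in culture cannot be told apart in these samples. The study calls its replicates biological without saying that these came from separate cultures, and p-values measure only the spread between these samples. All results rest on 1 cell line.

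HIFs are dimers of an oxygen-regulated alpha subunit and the constant partner ARNT. In normal oxygen, prolyl hydroxylases of the EGLN family mark the alpha subunit for capture by VHL and destruction, and the asparaginyl hydroxylase HIF1AN blocks its transactivation. When oxygen is low, or the hydroxylases are inhibited, the stable dimer binds a short core sequence near its targets, among which are most enzymes of glycolysis, glucose transporters, lactate dehydrogenase and pyruvate dehydrogenase kinase, as well as VEGFA, carbonic anhydrases and mitophagy receptors.

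The number of reads counted on genes ranged from 20261103 to 26287660 per library. Expression is given as normalized read count, that is, reads scaled by each library's DESeq2 size factor. All 9 fibroblast markers examined were expressed, with summed counts of 1142220.0 to 1167487 in PBS cells, whereas the 5 leukocyte markers summed to 0.933 to 1.93, and of the 5 epithelial and 4 endothelial markers 1 each (KRT19 and VWF) reached a mean of 10 over all libraries. HMOX1, the heme oxygenase induced by oxidants, was 5631, 5999.9 and 6046 in PBS cells and 49750.1, 41987 and 46141 in PBS + tBHP cells. Markers also moved with tBHP. In PBS cells 3 of the 9 fibroblast markers fell (LUM most, by 1.33 on the log2 scale) and 1 rose, with summed counts of 1151890.4 to 1362005 after tBHP. Among all genes tested, 26.9% fell and 24.2% rose in PBS cells. The 4 endothelial markers summed to 6.53 to 9.66 without and 13.1 to 25.0 with tBHP (CDH5, 1 of the 4, was at 0 in every library). VWF made up most of that sum and reached the mean of 10 through the tBHP libraries, so no test of it is given. The 5 epithelial markers summed to 192 to 198 and 118 to 184 (2 of 5 were at 0). KRT19 was called lower with fNSF-HA only, at -0.60 beside -0.46 with PBS and -0.49 with cNSF-HA. The differences between these changes did not pass the test (0% of all genes did). The part of these shifts in the changes of the 44 genes was not tested. In bulk RNA, fewer cells and less RNA per cell cannot be told apart.

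HIF core sequences were looked for in promoters because they are the site through which these genes are known to be controlled. Of the 44 genes, 39 matched an entry of the RefSeq promoter table (build GRCh38.p14), and VEGFA, VHL, SLC2A3, BNIP3L and NDRG1 did not. In the 250 bases before the start site, the core ACGTG or GCGTG was present on either strand in 13 of 15 glycolytic enzymes, 8 of 9 other HIF targets and 4 of 7 oxygen-sensing genes, and in 31 of 39 members (79.5%) against 47.4% of all 27305 genes in the table. Some genes have several start sites, which gives more windows to search. Among genes with 1 window, the core was present in 18 of 26 members (69.2%) and in 42.2% of 22114 genes. The E-box CACGTG, which contains the core ACGTG, was present in 10 of 39 members (25.6%) against 7.73% of all genes, and the antioxidant response core TGACNNNGC in 8 of 39 (20.5%) against 13.2%. All 8 were outside the other HIF targets, of which 0 of 9 held TGACNNNGC.

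The following stretches of 30 bases, written 5′ to 3′ on the strand of the gene, show the core nearest to the start site (capitals, read on either strand) in 10 of the 18 members with 1 window and a core. They are a selection, set out to compare members that rose after tBHP (7 of 12 shown) with members that fell (3 of 3 shown).
ENO2 (chr12:6914450-6914479, + strand): acccgcgctcgtACGTGcgcctccgccggc
PFKFB4 (chr3:48556952-48556981, - strand): tgagttgggcatGCGTGgtcggaggccggg
ALDOC (chr17:28576906-28576935, - strand): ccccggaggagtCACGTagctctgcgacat
GAPDH (chr12:6535172-6535201, + strand): ctctgcggggtCACGTGtcgcagaggagcc
PGK1 (chrX:78104053-78104082, + strand): aaacggaagccgCACGTctcactagtaccc
CA9 (chr9:35673898-35673927, + strand): tcgtttccaatgCACGTacagcccgtacac
EPAS1 (chr2:46297278-46297307, + strand): gggcctgccggcGCGTGcccgcccacacac
EGLN1 (chr1:231422288-231422317, - strand): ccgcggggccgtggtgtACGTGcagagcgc
ADM (chr11:10304960-10304989, + strand): gagcaggagcgcGCGTGgctgaggaaagaa
P4HA1 (chr10:73096935-73096964, - strand): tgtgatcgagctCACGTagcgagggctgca
The first 7 belong to genes that rose after tBHP in PBS cells and the last 3 to genes that fell. Over all 12 rising genes with 1 window and a core, the nearest core lay from 18 (CA9) to 234 bases (CA12, not shown) before the start, and among the falling genes 13 in EGLN1, 86 in P4HA1 and 101 in ADM. The GAPDH core is part of an E-box (CACGTG). A core of these letters was thus present on both sides of the response, and binding was not measured.

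The members spanned a wide range of expression in PBS cells. Exonic length counts the bases of all annotated exons of a gene, used or not, so the order between genes depends on it. It was 8571 bases for PKM and 6210 for LDHA, beside 2700 for TPI1. Per kilobase of exonic length, the normalized read count was highest for GAPDH, the enzyme that oxidizes glyceraldehyde-3-phosphate, at 39507 ± 749 (SD), followed by ENO1 (11009 ± 247), the main enolase, and TPI1 (7781 ± 167), triose-phosphate isomerase. ALDOA (7321 ± 149) and PKM (7276 ± 135) followed and lay within 1 SD of each other. LDHA, which makes lactate, was sixth at 6908 ± 180.4. The most abundant HIF target outside glucose metabolism was P4HA1, a collagen prolyl hydroxylase, at 1861 ± 58.0, and HIF1A itself reached 1389.8 ± 41.2. At the bottom were CA9 (21.6 ± 4.38), PDK3 (5.07 ± 1.26) and EGLN3 (0.474 ± 0.504). EGLN3, a prolyl hydroxylase, ranged from 0 to 11.4 normalized reads over the 18 libraries and was the 1 member below the filter for testing (a mean of 10), which the other 43 passed in every group.

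After tBHP in PBS cells, 24 members rose and 5 fell (limma on log2(count + 1), adjusted p under 0.05), 14 did not pass the test and EGLN3 was not tested. Of all 13686 genes tested, 24.2% rose and 26.9% fell. With cNSF-HA, 24 rose and 5 fell (24% and 26.8% of all genes), and with fNSF-HA, 21 rose and 4 fell (19.2% and 22.7%). In all 3 pre-incubations 20 members rose and 3 fell, against 14.6% and 17.9% of all genes. The median log2 change of the 43 members was 0.22 with PBS, 0.24 with cNSF-HA and 0.21 with fNSF-HA, and the median of all genes was 0.0043, -0.00053 and -0.034. The 3 responses use separate libraries. All 3 tBHP libraries lay above all 3 others in 26 of the 44 members and below them in 6 in PBS cells (31.8% and 32% of all genes), in 28 and 7 with cNSF-HA (31.4% and 32.3%) and in 24 and 5 with fNSF-HA (22.6% and 26.2%). Over all 18 libraries, the 9 with tBHP lay above the 9 without in 15 members (7 other HIF targets, 6 glycolytic enzymes, SLC2A3 and PFKFB4) and below them in 2 (ADM and HK2), where 12.5% and 15.3% of all genes did.

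**Figure D1:**
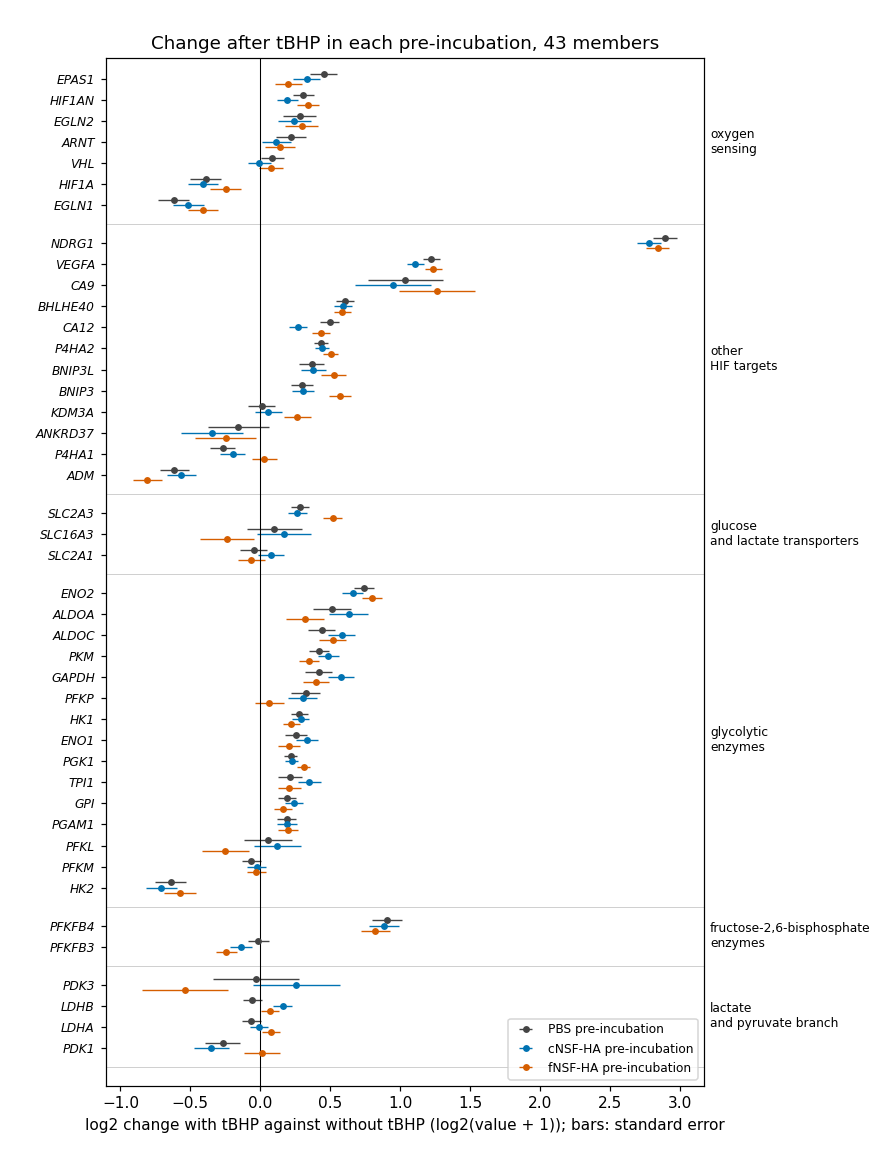
Log2 change with tBHP against without tBHP (x axis, log2(count + 1) scale) of the 43 tested members (y axis, grouped by role) in PBS, cNSF-HA and fNSF-HA cells, with bars for the standard error. Most glycolytic enzymes sit between 0.1 and 0.8 with HK2 to the left of 0, whereas the other HIF targets spread from ADM, left of 0, to NDRG1, near 2.9.

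After tBHP the glycolytic enzymes that changed did so by less than 1 log2 unit each. In PBS cells 12 rose (HK1, GPI, PFKP, ALDOA, ALDOC, TPI1, GAPDH, PGK1, PGAM1, ENO1, ENO2 and PKM), HK2 fell, and PFKL and PFKM did not pass the test. With the trend of each library with GC content and length removed, 6 were higher and 3 lower (HK2, PFKL at -0.33 and PFKM at -0.23), where 56.7% of all genes were called, and the median change was 0.080. The median was 0.16 with cNSF-HA (9 higher, 2 lower, 55.6% of all genes called) and 0.087 with fNSF-HA (6 higher, 3 lower, 55.1%). In PBS cells ENO1 (0.08), GPI (-0.01), TPI1 (-0.06), PGAM1 (-0.0014) and PFKP (0.07) no longer passed with that trend removed. As deposited, the median log2 change was 0.26 in PBS, 0.30 in cNSF-HA (12 rose, 1 fell) and 0.21 in fNSF-HA cells (9 rose, 1 fell). In the same fit 24.2% of all genes rose and 26.9% fell in PBS, 24% and 26.8% in cNSF-HA, and 19.2% and 22.7% in fNSF-HA cells. Together the 15 enzymes took 1.54% ± 0.025 (SD) of all reads in PBS cells and 1.89% ± 0.092 in PBS + tBHP cells, 1.54% ± 0.036 and 2.04% ± 0.157 with cNSF-HA, and 1.52% ± 0.023 and 1.85% ± 0.244 with fNSF-HA. The highest library without tBHP held 1.5858% and the lowest with tBHP, replicate 2 of fNSF-HA, 1.5863%, so that library was not set apart from cells without tBHP.

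ENO2, the enolase of neurons, rose in all 3 pre-incubations. Its normalized read count was 2399, 2183 and 2443 in the 3 PBS libraries and 4236, 3655 and 3856 in the 3 PBS + tBHP libraries. All 3 tBHP libraries lay above all 3 others, the log2 change was 0.74 ± 0.07 (SE; 1.67-fold, adjusted p = 2.53e-07), and it was 0.66 ± 0.07 with cNSF-HA and 0.80 ± 0.07 with fNSF-HA. HK2, the inducible hexokinase of the first step, went the other way. Its count was 1796, 1779 and 1693 in the 3 PBS libraries and 1306, 1007 and 1081 in the 3 PBS + tBHP libraries, a log2 change of -0.64 ± 0.11 (adjusted p = 1.41e-04), with -0.71 ± 0.11 with cNSF-HA and -0.57 ± 0.11 with fNSF-HA. Across all 18 libraries HK2 was 1552 to 1827 (median 1679) in the 9 libraries without tBHP and 810.1 to 1306 (median 1082) in the 9 with tBHP, with no overlap. HK1, the hexokinase most cells express, rose by 0.28 ± 0.06 in PBS cells (adjusted p = 0.00101), and with the GC and length trend removed it gave 0.09 and did not pass (adjusted p = 0.0602).

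ALDOA, the main aldolase, was 29343, 28341 and 28326 in the 3 PBS libraries and 46584, 37293 and 39351 in the 3 PBS + tBHP libraries. The log2 change was 0.51 ± 0.14 (adjusted p = 0.00462), and it was 0.63 with cNSF-HA (adjusted p = 9.60e-04) and 0.32 with fNSF-HA (adjusted p = 0.0685). The fNSF-HA value passed with edgeR, DESeq2 and the replicate block. With the GC and length trend removed it was 0.19 and did not pass (adjusted p = 0.0847). In the fNSF-HA + tBHP group the 3 libraries held 38966, 25975 and 45444, and replicate 2 lay below every library without tBHP. ALDOC, the aldolase of brain, was far less abundant, at 328, 342 and 324 in the 3 PBS libraries and 441, 458 and 451 in the 3 PBS + tBHP libraries. The log2 change was 0.44 ± 0.10 (adjusted p = 9.59e-04), with 0.58 ± 0.10 with cNSF-HA and 0.52 ± 0.10 with fNSF-HA. GAPDH spanned 114153 to 121723 (median 116257) in the 9 libraries without tBHP and 127762 to 193353 (median 163790.1) in the 9 with tBHP, and its log2 change was 0.42 ± 0.09 in PBS cells (adjusted p = 0.00125). PGK1, which makes the first ATP of the pathway, rose by only 0.22 ± 0.05 in PBS cells (adjusted p = 7.58e-04), yet its 9 tBHP libraries (16215 to 18229) lay above the 9 others (14052 to 14719). Of the remaining enzymes that rose in PBS cells, log2 changes lay between 0.19 (PGAM1) and 0.42 (PKM, pyruvate kinase). Once that trend with GC content and length was removed, the changes in PBS cells were 0.32 for ALDOA, 0.19 for ALDOC, 0.13 for GAPDH, 0.21 for PKM and 0.37 for PGK1, all past the test, and ALDOC gave 0.27 in the cNSF-HA groups. PGK1 did not pass with quantile normalization.

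The other HIF targets spread more widely. In PBS cells 8 of 12 rose, ADM and P4HA1 fell, and KDM3A (0.01) and ANKRD37 (-0.16) did not pass the test, although KDM3A gave 0.21 and passed with the GC and length trend removed. The median log2 change was 0.40 in PBS, 0.34 in cNSF-HA (8 rose, 1 fell) and 0.51 in fNSF-HA cells (9 rose, 1 fell). Among all genes, 24.2% rose and 26.9% fell in PBS, 24% and 26.8% in cNSF-HA, and 19.2% and 22.7% in fNSF-HA cells.

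NDRG1, a cytoplasmic protein induced by stress and low oxygen, had the largest change of all 43 members. Its count was 967, 969 and 838 in the 3 PBS libraries and 7703, 6057 and 6909.5 in the 3 PBS + tBHP libraries, a 7.43-fold rise (log2 change 2.89 ± 0.09, adjusted p = 1.62e-13). The change was 2.78 ± 0.09 with cNSF-HA and 2.84 ± 0.09 with fNSF-HA, and the groups of 9 libraries were far apart. VEGFA, the angiogenic growth factor, was 2597, 2544 and 2579.5 in the 3 PBS libraries and 6359.6, 5569.9 and 6114 in the 3 PBS + tBHP libraries. It rose 2.33-fold (log2 change 1.22 ± 0.06, adjusted p = 4.14e-11), with 1.11 ± 0.06 with cNSF-HA and 1.24 ± 0.06 with fNSF-HA. CA9, a membrane carbonic anhydrase, rose from low counts, 34.8, 43.9 and 29.4 in the 3 PBS libraries and 103, 58.8 and 66.7 in the 3 PBS + tBHP libraries. The log2 change was 1.04 ± 0.27 (adjusted p = 0.00398), and the tBHP libraries were above all 3 PBS libraries, although over all 18 libraries the ranges met (62.0 was the highest without tBHP and 58.8 the lowest with it). CA9 shares 38.5% of its exonic bases with ARHGEF39 on the opposite strand, and since the kit did not mark strand, reads of the pair cannot be told apart. ARHGEF39 had a mean of 159.6 without and 136 with tBHP.

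The second membrane carbonic anhydrase, CA12, rose by 0.50 ± 0.07 in PBS cells (adjusted p = 8.20e-06). BHLHE40, a transcriptional repressor, rose by 0.61 ± 0.06 (adjusted p = 4.42e-07) and P4HA2, a collagen prolyl hydroxylase, by 0.43 ± 0.05 (adjusted p = 1.73e-06). The mitophagy receptors BNIP3 and BNIP3L rose by 0.30 ± 0.08 and 0.37 ± 0.09. BNIP3L was 1726, 1887 and 1812 in the 3 PBS libraries and 2179, 2465 and 2359 in the 3 PBS + tBHP libraries. The test gave adjusted p = 0.00458 for BNIP3 and 0.00224 for BNIP3L. With the GC and length trend removed BNIP3 gave 0.15 and did not pass (adjusted p = 0.0798), and BNIP3L gave 0.78.

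ADM, which encodes the vasodilator peptide adrenomedullin, was 2027, 1920.3 and 1936 in the 3 PBS libraries and 1340.2, 1296 and 1209 in the 3 PBS + tBHP libraries. It fell by 0.61 ± 0.10 on the log2 scale (adjusted p = 9.38e-05), and its 9 tBHP libraries (908 to 1548) lay below the 9 others (1918 to 2059). P4HA1 was 5645, 5963 and 5659 in the 3 PBS libraries and 4315, 4993 and 5044 in the 3 PBS + tBHP libraries. The log2 change of -0.27 ± 0.09 passed the test in PBS cells (adjusted p = 0.0169), and it was -0.20 with cNSF-HA (adjusted p = 0.0708) and 0.03 with fNSF-HA (adjusted p = 0.821). With the GC and length trend removed the change in PBS cells was 0.04 and did not pass, and that with fNSF-HA was 0.15 and passed as higher (adjusted p = 0.00508). The PBS call was also lost without PBS replicate 2 or PBS + tBHP replicate 1.

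**Figure D2:**
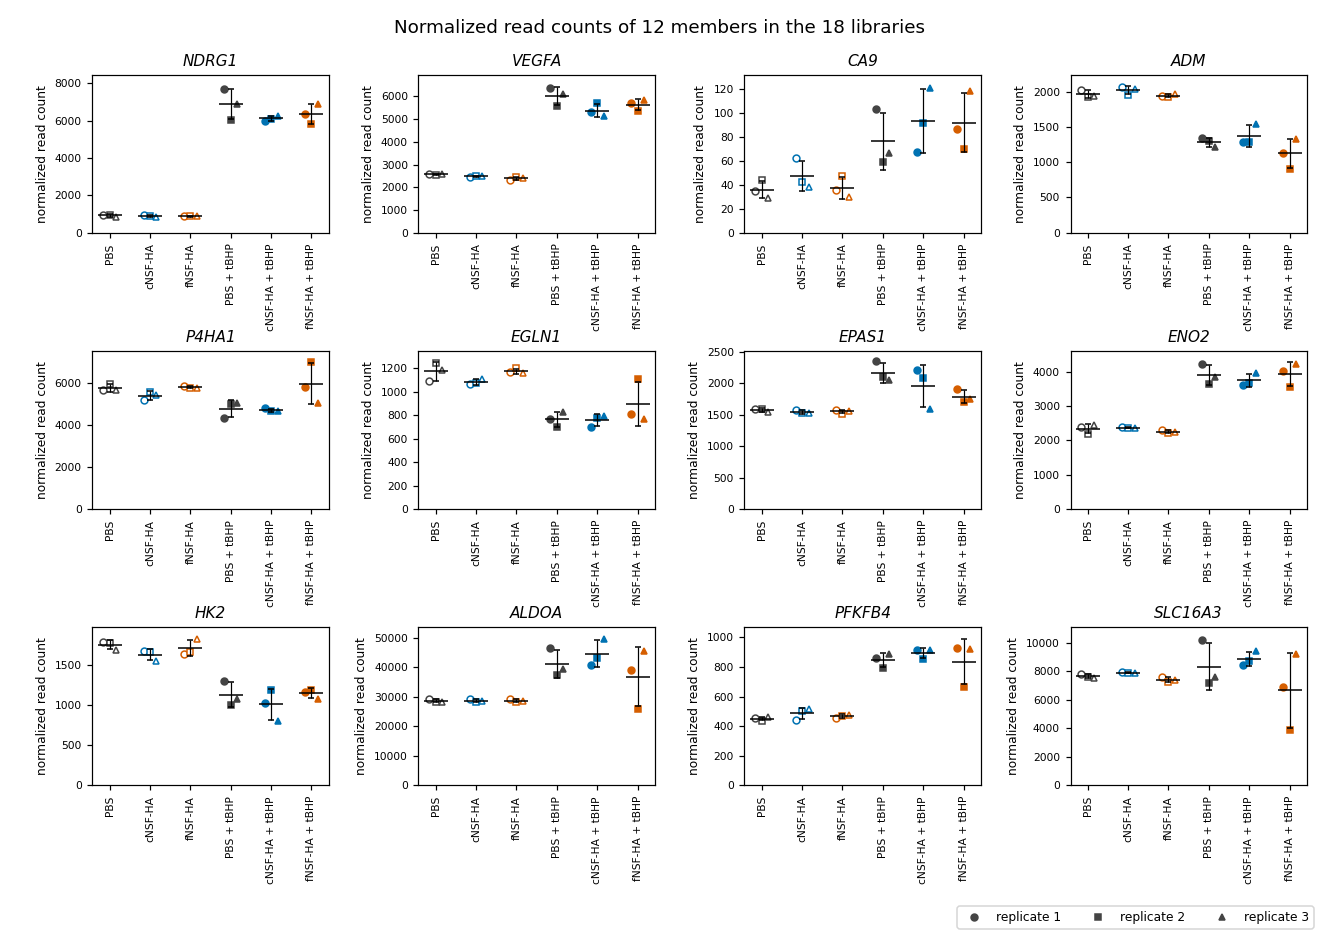
Normalized read counts (y axis, linear, from 0) of 12 members in the 6 groups (x axis), where each symbol is 1 library, open without tBHP and filled with tBHP, and the bars give the mean and SD of 3. NDRG1, VEGFA, ENO2 and PFKFB4 show 2 separate levels, ADM and HK2 fall, and the fNSF-HA + tBHP library of replicate 2 is low for ALDOA and SLC16A3 and high for P4HA1 and EGLN1.

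Among the 7 tested oxygen-sensing genes, 2 rose and 2 fell with PBS and again with cNSF-HA, and 1 rose and 1 fell with fNSF-HA. The shares of all genes that rose and fell were 24.2% and 26.9%, 24% and 26.8%, and 19.2% and 22.7%. EGLN1, the main prolyl hydroxylase of HIF-1 alpha and itself a HIF target, was 1088, 1247 and 1187 in the 3 PBS libraries and 766, 702 and 824 in the 3 PBS + tBHP libraries. Its log2 change was -0.62 ± 0.11 (adjusted p = 1.33e-04), with -0.51 ± 0.11 with cNSF-HA and -0.41 ± 0.11 with fNSF-HA. The fNSF-HA call of EGLN1 was lost in the fit to the groups compared. EPAS1, which encodes HIF-2 alpha, was 1598, 1595 and 1541 in the 3 PBS libraries and 2350.2, 2098 and 2047 in the 3 PBS + tBHP libraries. It rose by 0.45 ± 0.09 (adjusted p = 6.79e-04), and the change was 0.33 with cNSF-HA (adjusted p = 0.00746) and 0.20 with fNSF-HA (adjusted p = 0.1). HIF1AN rose by 0.31 ± 0.08 (adjusted p = 0.00266) and HIF1A fell by 0.39 ± 0.11 (adjusted p = 0.00638). ARNT (0.22), EGLN2 (0.28) and VHL (0.09) did not pass the test in any pre-incubation, although EGLN2 passed in each with edgeR and with quantile normalization and ARNT in PBS cells with edgeR and in the fit to the groups compared. With the GC and length trend removed, HIF1A in PBS cells gave 0.12 and did not pass, and EPAS1 gave 0.26 and did, with 0.21 in the cNSF-HA groups. The fNSF-HA value of EPAS1 passed with edgeR, and its cNSF-HA call was lost without cNSF-HA + tBHP replicate 1. Protein levels were not measured here.

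Of the transporters, only SLC2A3, the high-affinity glucose transporter GLUT3, passed the test. It was 1227, 1280.2 and 1240.0 in the 3 PBS libraries and 1556, 1501 and 1507 in the 3 PBS + tBHP libraries, a log2 change of 0.28 ± 0.07 (adjusted p = 0.00193), with 0.26 ± 0.07 with cNSF-HA and 0.52 ± 0.07 with fNSF-HA. SLC2A1, the more abundant transporter GLUT1, gave a log2 difference of -0.05 ± 0.09 and did not pass (adjusted p = 0.69). SLC16A3, the lactate exporter MCT4, was 7839.7, 7596 and 7539 in the 3 PBS libraries and 10221, 7168 and 7564 in the 3 PBS + tBHP libraries. The log2 change was 0.10 ± 0.19 (95% interval -0.31 to 0.51, adjusted p = 0.688), with replicate 1 above and replicate 2 below the PBS libraries. SLC2A1 (-0.26) and SLC16A3 (-0.26) passed as lower with the GC and length trend removed.

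The 2 enzymes that make and remove fructose-2,6-bisphosphate, the activator of phosphofructokinase, gave unlike values. PFKFB4 was 458, 438 and 459 in the 3 PBS libraries and 858, 795 and 887 in the 3 PBS + tBHP libraries, a 1.87-fold rise (log2 change 0.90 ± 0.11, adjusted p = 1.79e-06), with 0.88 ± 0.11 with cNSF-HA and 0.82 ± 0.11 with fNSF-HA. PFKFB3 was 3858, 3751 and 3639.7 in the 3 PBS libraries and 4024, 3606 and 3528 in the 3 PBS + tBHP libraries, and its change of -0.01 (95% interval -0.18 to 0.15) did not pass the test in PBS cells (adjusted p = 0.897), whereas in fNSF-HA cells it fell by 0.24 (adjusted p = 0.0167). With the GC and length trend removed it gave -0.26 in PBS cells and passed, and the call in fNSF-HA cells was lost with edgeR, in the fit to the groups compared and without fNSF-HA replicate 1 or 3 or fNSF-HA + tBHP replicate 2.

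No enzyme of the lactate and pyruvate branch passed the test in PBS cells. LDHA was 43259, 43793 and 41641 in the 3 PBS libraries and 37347, 42835 and 43071 in the 3 PBS + tBHP libraries, a change of -0.07 ± 0.07 (95% interval -0.21 to 0.08, adjusted p = 0.434), and LDHB, the heart-type subunit, gave -0.06 ± 0.07 (95% interval -0.20 to 0.08, adjusted p = 0.49). PDK1, which inhibits pyruvate dehydrogenase, was 2094, 2272 and 2223 in the 3 PBS libraries and 1558, 2103 and 1840.3 in the 3 PBS + tBHP libraries. Its change of -0.27 ± 0.13 did not pass in PBS cells (adjusted p = 0.083) and did in cNSF-HA cells (-0.35 ± 0.13, adjusted p = 0.0279). With the GC and length trend removed the 2 values were 0.08 and 0.09 and neither passed (adjusted p = 0.238 and 0.18), while in fNSF-HA cells the change was 0.01 as deposited (adjusted p = 0.946) and 0.23 with the trend removed, which passed as higher (adjusted p = 0.00141). The cNSF-HA call was also lost with edgeR, without the filter on low values and without cNSF-HA replicate 2 or 3 or cNSF-HA + tBHP replicate 1 or 3, whereas the PBS value passed with the replicate block, in the fit to the groups compared and without PBS + tBHP replicate 2. PDK3 was 19.3, 31.7 and 24.2 in the 3 PBS libraries and 25.0, 31.6 and 17.5 in the 3 PBS + tBHP libraries, and its change of -0.03 ± 0.31 did not pass.

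The makeup of several families differed between cells with and without tBHP. By normalized read count per kilobase, HK2 made up 26.4 to 30.2% without tBHP and 14.1 to 20.0% with tBHP of HK1 and HK2 together (9 libraries each), with no overlap. The share of ENO2 in the enolases was 4.45 to 5.02% without tBHP and 5.74 to 7.02% with tBHP, and that of PFKFB4 in PFKFB3 and PFKFB4 was 10.2 to 11.8% without tBHP and 17.6 to 22.2% with tBHP, again without overlap. PFKP, the platelet-type phosphofructokinase, held 81.0 to 82.5% without tBHP and 83.8 to 84.5% with tBHP of the 3 phosphofructokinases. SLC2A3 held 17.2 to 19.0% without tBHP and 19.0 to 29.2% with tBHP of SLC2A1 and SLC2A3. The ranges overlapped for LDHB in lactate dehydrogenase, which held 34.1 to 35.0% without tBHP and 33.0 to 37.9% with tBHP, and for ALDOC in aldolase. These shares are descriptions of levels, with no test. Their size depends on the annotated exonic length of each gene (6210 bases for LDHA and 2983 for LDHB).

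**Figure D3:**
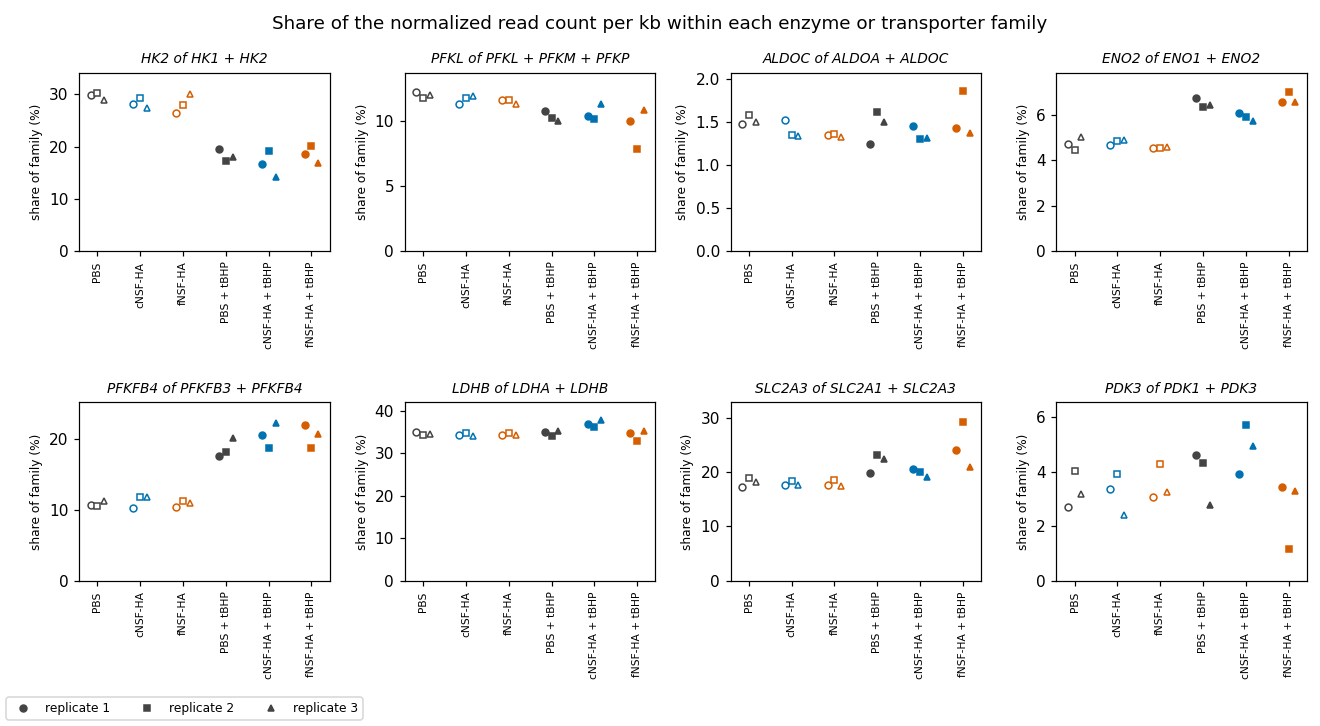
Share (y axis, percent of the summed normalized read count per kb) of 1 member of each of 8 families in the 18 libraries by group (x axis), where open symbols are without and filled with tBHP. The HK2 share lies between 26.4 and 30.2% without tBHP and between 14.1 and 20.0% with it, the ENO2 and PFKFB4 shares are higher without overlap, and the LDHB share overlaps.

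The shift of each list was also followed library by library. Against the mean of the PBS libraries, the median shift of the 15 glycolytic enzymes was 0.32, 0.21 and 0.25 in PBS + tBHP, 0.24, 0.31 and 0.36 in cNSF-HA + tBHP, and 0.28, 0.0014 and 0.37 in fNSF-HA + tBHP. Replicate 2 of fNSF-HA + tBHP stood at the PBS level for the enzymes. For the 12 other HIF targets the shift in that library was 0.52, beside 0.52 and 0.38 in replicates 1 and 3. Without that library, 27 members passed the test in fNSF-HA cells (23 rose, 4 fell, where 50.6% of all genes were called), with ALDOA, TPI1, PFKP, EGLN2 and HIF1A gained and PGAM1, PFKFB3 and KDM3A lost.

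**Figure D4:**
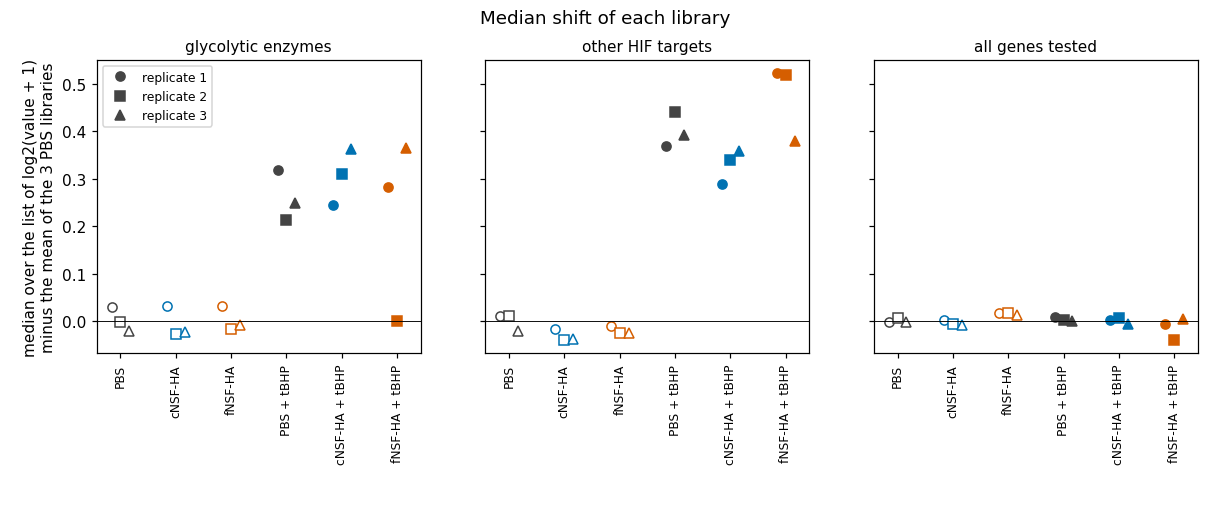
Median over the list of log2(count + 1) minus the mean of the 3 PBS libraries (y axis) for the 15 glycolytic enzymes, the 12 other HIF targets and all 13686 genes tested, for each of the 18 libraries by group (x axis). All tBHP libraries lie above 0.2 in both lists except replicate 2 of fNSF-HA + tBHP, which is near 0 for the enzymes, and the medians of all genes stay near 0.

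Several calls depended on the processing. Transcripts of the enzymes are rich in GC (median 53.3%, against 50.8% for the other HIF targets and 47.9% for all genes). With each library's trend with GC content and transcript length removed, the median change in PBS cells was 0.080 for the enzymes and 0.34 for the other HIF targets, and 26 members were called (18 higher, 8 lower, with 56.7% of all genes called). Against the deposited values, 9 members lost their call and 6 gained one. The part of GC content and length in the deposited values themselves was not tested.

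Quantile normalization left 6 enzymes higher and 1 lower in PBS cells, where 51.5% of all genes were called, with PGK1, ENO1, GPI, TPI1, PGAM1 and PFKP no longer past the threshold, while LDHA (-0.24) and LDHB (-0.20) passed as lower and EGLN2 (0.35) as higher. Over all 18 alternatives run for this comparison, including 6 that left out 1 library, 5 of the 12 rising enzymes (ALDOA, ALDOC, GAPDH, ENO2 and PKM) and 7 of the 8 rising HIF targets passed every time, as did HK2, EGLN1 and ADM among the falling genes. Of the 10794 genes with a value in every alternative, 16.9% passed as higher every time and 18.5% as lower. In all 3 pre-incubations and under all of their alternatives, 14 of the 42 members with such values passed, beside 23.6% of those genes, namely NDRG1, VEGFA, CA9, CA12, BHLHE40, BNIP3L, P4HA2, ADM, SLC2A3, PFKFB4, ENO2, ALDOC, GAPDH and HK2. CA9 had a median count of 38.3 without and 86.8 with tBHP. It therefore met the alternative filter, a mean of at least 50, through its tBHP libraries.

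HA alone was compared with PBS in cells not given tBHP. Without tBHP, limma called 0 of the 43 members in cNSF-HA against PBS, fNSF-HA against PBS and cNSF-HA against fNSF-HA, and 0 had an unadjusted p under 0.05 (0% of all genes were called in each, and 0.921%, 0.796% and 1.51% had such a p). edgeR and DESeq2 also called 0 members, with 0% of all genes called except by DESeq2 in fNSF-HA against PBS (0.0219%). The differences from PBS ran from -0.12 to 0.38 with cNSF-HA and from -0.18 to 0.12 with fNSF-HA, with CA9 at the upper end for cNSF-HA (0.38 ± 0.27, 95% interval -0.20 to 0.95) and ALDOC at the lower end for fNSF-HA (-0.18 ± 0.10, 95% interval -0.38 to 0.02). The fit pools the spread of all 6 groups. With the spread of the 2 compared groups alone, BNIP3L (-0.15, adjusted p = 0.0185) and P4HA1 (-0.10, adjusted p = 0.0253) were lower and SLC16A3 (0.091, adjusted p = 0.0288) higher with cNSF-HA than with fNSF-HA, where 7.16% of all genes were called.

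After tBHP, limma again called 0 members in any comparison between pre-incubations (0% of all genes in cNSF-HA against PBS and against fNSF-HA, 0.139% in fNSF-HA against PBS). At an unadjusted p under 0.05, 14 members differed between cNSF-HA and fNSF-HA (32.2% of all genes), 9 between fNSF-HA and PBS (22.7%) and 4 between cNSF-HA and PBS (8.64%). The comparisons share their PBS and HA groups. The smallest p between cNSF-HA and fNSF-HA was that of P4HA1, at 4788, 4676 and 4650.4 with cNSF-HA and 5813, 7024 and 5069 with fNSF-HA, a difference of -0.33 ± 0.09 (95% interval -0.52 to -0.14, adjusted p = 0.0981). SLC2A3 followed, at 1487, 1499 and 1344 with cNSF-HA and 1750.3, 1784 and 1542 with fNSF-HA (-0.23 ± 0.07, adjusted p = 0.0981). The third was BNIP3L, at 2141, 2155 and 2269.8 and 2601, 3177 and 2334 (-0.29 ± 0.09, adjusted p = 0.0981).

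The enzymes' median difference (cNSF-HA minus fNSF-HA, after tBHP) was 0.12, with 10 of 15 positive, and that of the other HIF targets -0.079, with 10 of 12 negative, beside -0.029 for all genes. Side by side, the largest enzyme differences were those of PFKL (0.43 ± 0.17, 95% interval 0.07 to 0.78), ALDOA (0.31 ± 0.14, 95% interval 0.02 to 0.60) and PFKP (0.27 ± 0.10, 95% interval 0.05 to 0.49), none of which passed after adjustment. The enzyme side rested on replicate 2 of fNSF-HA + tBHP. Without it the enzyme median was 0.022, with 8 of 15 positive, and PFKL, ALDOA and PFKP gave 0.12, 0.077 and 0.11, while the median of the other HIF targets was -0.12. Without replicate 3 of cNSF-HA + tBHP the enzyme median was 0.064, and without replicate 3 of fNSF-HA + tBHP it was 0.19. The median of the other HIF targets was also -0.12 without replicate 2 of cNSF-HA + tBHP. PFKL gave 0.66, ALDOA 0.48 and PFKP 0.41 without replicate 3 of fNSF-HA + tBHP. Against PBS + tBHP, the median difference of the enzymes was 0.034 with cNSF-HA and -0.021 with fNSF-HA, and both share the PBS + tBHP libraries.

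**Figure D5:**
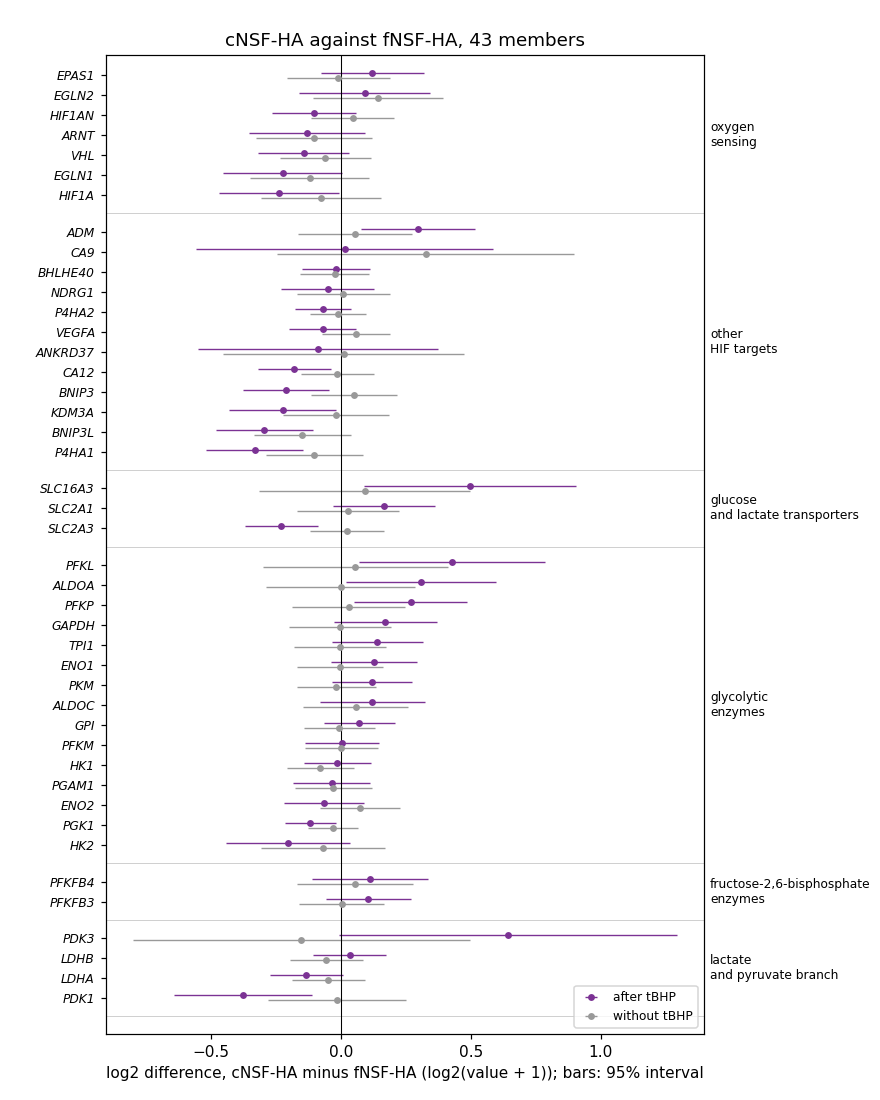
Difference between cNSF-HA and fNSF-HA cells (x axis, log2(count + 1) scale) for the 43 tested members (y axis, grouped by role), after tBHP and without tBHP, with bars for the 95% interval. After tBHP 10 of 15 glycolytic enzymes lie right of 0 (8 without replicate 2 of fNSF-HA + tBHP) and 10 of 12 other HIF targets left of it, and no member passed the test at an adjusted p of 0.05.

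These calls depended on the tool and on 1 library. DESeq2 on the recovered reads called 5 members lower with cNSF-HA than with fNSF-HA after tBHP. Of the 9971 genes to which it gave an adjusted p here, 9.26% were called, 6.23% as lower. The 5 members were P4HA1 (-0.34, adjusted p = 0.0302), PGK1 (-0.11, adjusted p = 0.0302), SLC2A3 (-0.23, adjusted p = 0.0335), BNIP3L (-0.30, adjusted p = 0.0387) and PDK1 (-0.39, adjusted p = 0.046). DESeq2 called P4HA1 (0.32, adjusted p = 0.0317) and PGK1 (0.10, adjusted p = 0.0363) higher with fNSF-HA than with PBS. There 3.82% of the 11563 genes with an adjusted p were called, 2.86% as higher. edgeR called 0 members in both (0% and 0.263% of all genes). Without replicate 3 of fNSF-HA + tBHP, limma called 20 members between cNSF-HA and fNSF-HA (40.8% of all genes) and 13 between fNSF-HA and PBS (29.4%), and without replicate 1 or 2 it called 0.

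The change after tBHP itself was compared between pre-incubations with an interaction term. By limma 0 members differed (0% of all genes), and 2, 4 and 2 had an unadjusted p under 0.05 for cNSF-HA against PBS, fNSF-HA against PBS and cNSF-HA against fNSF-HA (4.06%, 6.88% and 3.89% of all genes). edgeR and DESeq2 also called 0 members, with 0% of all genes called except by DESeq2 for fNSF-HA against PBS (0.0438%). The smallest p was that of SLC2A3, whose response differed by -0.25 on the log2 scale, cNSF-HA minus fNSF-HA (95% interval -0.45 to -0.05, adjusted p = 0.71). For NDRG1 the interval of that difference was -0.31 to 0.19.

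Of 22 other genes induced by low oxygen, not on the list of 44, 9 rose and 9 fell in PBS cells (24.2% and 26.9% of all genes), 10 and 9 with cNSF-HA (24% and 26.8%) and 7 and 8 with fNSF-HA (19.2% and 22.7%). Their median log2 changes were -0.11, -0.14 and 0.14. DDIT4, an inhibitor of mTOR signalling, was 295, 336 and 344 in the 3 PBS libraries and 3536, 2848 and 3049 in the 3 PBS + tBHP libraries (log2 change 3.27 ± 0.12, adjusted p = 9.41e-13). VLDLR, a lipoprotein receptor, was 429.7, 402 and 402 in the 3 PBS libraries and 1859, 1885 and 1812 in the 3 PBS + tBHP libraries (2.17 ± 0.07), and MXI1, a MYC antagonist, was 101, 85.8 and 82.2 in the 3 PBS libraries and 279, 329 and 292 in the 3 PBS + tBHP libraries (1.73 ± 0.14). Among those that fell, picked after their values were seen, were PPFIA4 (-1.35), HILPDA (-0.84), a lipid droplet protein, and LOX (-0.81), the collagen cross-linking oxidase. Of 11 tested other factors of the HIF pathway, 4 rose (ARNTL, EP300, CREBBP and OS9) and CUL2, the scaffold of the VHL ligase, fell by 0.43 in PBS cells, and 3 rose and 1 fell with cNSF-HA and 4 rose and 1 fell with fNSF-HA. The largest was ARNTL, a clock factor related to ARNT, at 1.38 ± 0.08 (adjusted p = 4.22e-10).

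Some rows can share reads with near-identical genes. Of the 44 members, 15 have pseudogenes listed by name (144 rows), whose summed counts reached at most 0.777% of the member, in LDHA. ALDOA shares 53.5% of its exonic bases with models on both strands in GENCODE release 29, ANKRD37 35.2% with UFSP2 on the opposite strand, LDHB 33.4% and EGLN2 30.6% with overlapping models, and GAPDH 14.2% and ALDOC 10.1% with models on the opposite strand, so their values are less certain.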

How the data were processed

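RNA-seq was done on 18 libraries of IMR90 cells (6 groups of 3) made with a TruSeq kit that does not keep strand. The deposited values are a signal per gene, made by scaling reads with a size factor from DESeq2 for each library. By the submitters' processing notes and the methods, the authors used Trimmomatic 0.32, STAR 2.5.2b, featureCounts (Subread 1.5.0-p3), DESeq2 and GRCh38.p7, and the annotation release is not given in the sources used here. Columns of p-values and of their ranks deposited by the authors, with the comparison not named, were not used.

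Groups came from the sample labels. Values were tested with limma 3.58.1 (R 4.3.3) on log2(count + 1), over 13686 genes with a mean of at least 10, with 1 spread for all 6 groups, two-sided tests and Benjamini-Hochberg adjustment at 0.05, so fold changes of low genes are understated. Whole reads were recovered for 100% of values (within 0.01 of a read) and given to edgeR 4.0.16 and DESeq2 1.42.0 as alternatives. The others were pseudocounts of 0.1 and 5, no filter, a mean of at least 50, a median rescale, quantile normalization, a replicate block, removal of the trend with GC content and length (splines with 5 degrees of freedom, 12503 genes), a fit to the groups compared and leaving out each library. The scripts were tested on simulated data. The members and lists were chosen with earlier results of these data known. Library values and full statistics were given for the 4 glycolytic enzymes and the 4 other HIF targets with the largest absolute change after tBHP in PBS cells, for 2 of each other list, and for the 3 members with the smallest p between cNSF-HA and fNSF-HA after tBHP, with 3 genes for each list of other genes. Members beyond these were named to account for all 44.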

Additional observations from a re-analysis of the deposited data

How the results depend on the processing

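Of 342 values of named members recomputed under the alternatives, 317 kept their direction and their side of the threshold, 12 passed it only under the alternative and 13 reversed. The 13 belong to changes that did not pass the test in PBS cells. They were PFKFB3 with edgeR (0.054) and without PBS replicate 1 (0.0070) or PBS + tBHP replicate 2 (0.0074) or 3 (0.023), LDHA with edgeR (0.0013) and without PBS + tBHP replicate 1 (0.0022), SLC16A3 without that library (-0.056), and, with the GC and length trend removed, with or without the replicate block, SLC16A3 (-0.26), PDK1 (0.079) and LDHA (0.047). Outside these values, 5 changes that had passed in PBS cells turned sign with that trend removed, namely P4HA1 (0.04), HIF1A (0.12), TPI1 (-0.06), GPI (-0.01) and PGAM1 (-0.0014). In PBS cells the median change of the glycolytic enzymes and of the other HIF targets was 0.15 and 0.37 with quantile normalization, which called 7 enzymes, 0.32 and 0.47 with edgeR, and 0.080 and 0.34 with the GC and length trend removed, alone or with the block. DESeq2 called 5 members between cNSF-HA and fNSF-HA and 2 between fNSF-HA and PBS after tBHP, and the fit to the groups compared called 3 between the cNSF-HA and fNSF-HA groups in the absence of tBHP. Leaving out 1 library at a time, the members called after tBHP numbered 25 to 29 in PBS, 25 to 29 in cNSF-HA and 20 to 27 in fNSF-HA cells (43.7 to 49.2%, 43.3 to 48% and 34.9 to 50.6% of all genes), with 10 to 12 enzymes and 9 to 10 other HIF targets in PBS cells and medians of 0.23 to 0.28 and 0.38 to 0.42. Without 1 of these libraries the change ran from -0.056 to 0.20 for SLC16A3, from -0.072 to 0.023 for PFKFB3 and from -0.10 to 0.0022 for LDHA. After tBHP, 0 to 20 members were called between cNSF-HA and fNSF-HA and 0 to 13 between fNSF-HA and PBS, and the counts of 20 and 13 came from leaving out fNSF-HA + tBHP replicate 3. The cause of these shifts was not tested. Between libraries of the same replicate number, 6 of 27 correlations of the deviations from the group mean exceeded 0.1 (range -0.12 to 0.33). Whether the replicate numbers pair the samples cannot be told from these values. With the replicate block, 31, 29 and 29 members were called after tBHP in PBS, cNSF-HA and fNSF-HA cells (52.8%, 52.4% and 43.4% of all genes) and 0 in every comparison between pre-incubations.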

Other observations

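Glycolysis genes outside the 44 were examined as a wider list. Of 21 examined, 14 passed the filter, and 3 rose and 1 fell after tBHP in PBS cells (24.2% and 26.9% of all genes), 5 and 4 with cNSF-HA (24% and 26.8%) and 4 and 2 with fNSF-HA (19.2% and 22.7%). BPGM, which makes 2,3-bisphosphoglycerate, was 1769.9, 1728 and 1669.8 in the 3 PBS libraries and 2485, 2842 and 2999 in the 3 PBS + tBHP libraries (log2 change 0.68 ± 0.07, adjusted p = 4.94e-07). SLC16A7, the monocarboxylate transporter MCT2, was 339.9, 412 and 415 in the 3 PBS libraries and 126, 201 and 131 in the 3 PBS + tBHP libraries (-1.37 ± 0.28, adjusted p = 5.54e-04). SLC2A6, a glucose transporter, gave -0.86 ± 0.43 and did not pass the test (adjusted p = 0.102).

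Pyruvate dehydrogenase and the mitochondrial pyruvate carrier were covered by 12 genes. Of the 11 other than PDK4, 5 fell after tBHP in each pre-incubation (26.9%, 26.8% and 22.7% of all genes) and PDK2 passed as higher in the PBS groups (0.31, adjusted p = 0.0483) and the cNSF-HA groups (0.33, adjusted p = 0.0381), with 0.20 in the fNSF-HA groups (adjusted p = 0.225). DLD, the dihydrolipoamide dehydrogenase subunit, fell by 0.66 ± 0.08 (adjusted p = 2.37e-06) and PDP2, a phosphatase that activates the complex, by 0.49 (adjusted p = 0.00389). PDK4, a kinase that inhibits the complex, was 3.86, 1.87 and 0 in the 3 PBS libraries and 21.6, 28.3 and 28.4 in the 3 PBS + tBHP libraries. It passed the filter on low values through the tBHP libraries, so no fold or test of it is given. PDK1 and PDK3, the kinases among the 44 genes, did not pass the test in PBS cells. PDK1 passed as lower in the cNSF-HA groups (-0.35, adjusted p = 0.0279). With the GC and length trend removed that call was lost, and PDK1 passed as higher in the fNSF-HA groups (0.23, adjusted p = 0.00141).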
